A study of Rattus norvegicus with 48 samples.

Results

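Old rats of the HCR line that had run to exhaustion were compared with old HCR rats at rest, in the extensor digitorum longus, a muscle of the lower leg made mostly of fast fibres. The comparison used the 12 arrays whose labels give old HCR, 6 exhausted and 6 at rest, out of 48 Affymetrix Rat Gene ST 2.1 arrays in 8 groups of 6. The other groups were young HCR, old LCR and young LCR, each exhausted and at rest. HCR and LCR are known as rat lines selected over generations for high and for low treadmill running capacity, although the labels print only the letters. No strain, treatment or transgene besides line, age class and the run was labelled, the age in months and the interval between the run and tissue sampling were not stated, and each array title carried its own animal number (2 numbers for young HCR rest replicate 6). Probe sets that name exactly 1 gene covered 14557 genes, of which 9558 passed a filter on low signal and were tested.

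A bout of exhausting contraction raises calcium, cyclic AMP and energy stress inside the fibre and releases adrenaline and glucocorticoids into the blood. Immediate early genes answer such signals without new protein synthesis, and their short-lived transcripts rise and decay quickly. Glucocorticoid receptor and FoxO factors switch on a slower set of genes that restrain growth and release fuel, and endothelial cells of the muscle's vessels respond to flow and hypoxia with a programme of their own.

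All values are the deposited log2 expression levels of a probe set, so that a difference of 1 is a doubling. The number of arrays, not a read depth, limits their precision. Column medians ran from 4.47 to 4.59 over the series. Exhausted replicate 1 stood apart among the 12 arrays: its lower quartile was 3.28, its median correlation with its group was 0.948, and limma gave it a quality weight of 0.360. Rest replicate 5 had the highest mean of 17 liver plasma protein genes (6.61). Of 13 listed fast fibre markers 7 were on the array under a single gene name and all 7 were tested. Myh4, the fast myosin heavy chain IIb, lay between 13.04 and 13.27 in exhausted and between 13.05 and 13.14 in rested rats.

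After the run 138 genes were higher (1.44% of 9558) and 163 were lower (1.71%) at an adjusted p below 0.05 (limma, Benjamini-Hochberg over all genes tested). Together these are 3.15% of the genes. At an unadjusted p below that threshold the number was 1570, or 16.4%. The rises were the larger changes. At least 1.5-fold changes numbered 89 up and 31 down, at least 2-fold changes 40 up and 5 down, and at least 4-fold changes 8 up and 0 down. The median change was 0.72 among the called rises and -0.43 among the called falls, against -0.05 over all genes tested, of which 36.9% had a positive change. In 66 of the 138 rises and 61 of the 163 falls the exhausted and rested arrays did not overlap. Over all genes tested this held for 0.753% upwards and 1.16% downwards. Among 11882 probe sets without a single gene name 1.11% were called, 0.513% higher and 0.598% lower.

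The balance of rises and falls rested on the scaling of the arrays. After a further quantile normalization 171 genes rose and 114 fell, and with each array centred on the median of the genes tested 191 rose and 83 fell. The number of falls was 97 without exhausted replicate 1 and 108 without rest replicate 6, and 105 genes rose and 82 fell without exhausted replicate 1 and rest replicate 5. With the model fitted to the 12 old HCR arrays alone, 76 rose and 42 fell, and 21 of the 60 rises and 18 of the 35 falls that are named here were not called. Rises made up 45.8% of the calls, 60.0% after quantile normalization and 69.7% after centring on the genes tested.

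The largest rise was that of Nr4a2, an orphan nuclear receptor of the immediate early class. Its level was 8.63 at lowest, 10.27 at the median and 10.79 at highest in exhausted rats, against 6.41, 7.35 and 8.09 in rested rats. The groups did not overlap, and the change was 2.67 ± 0.34 on the log2 scale (SE), or 6.38-fold (adjusted p = 4.9e-07). Junb, a subunit of the AP-1 transcription factor, lay at 7.07, 7.78 and 7.89 in exhausted rats, against 4.80, 5.09 and 5.94 in rested rats, a change of 2.41 ± 0.26 (adjusted p = 1.17e-08). In the exhausted group 5 arrays lay close together and replicate 5 lay below them, still above every rested rat.

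Sik1, a salt-inducible kinase whose gene is a classical target of cyclic AMP signalling, had 8.98, 9.48 and 9.69 as lowest, median and highest level in exhausted rats, against 6.05, 7.19 and 8.22 in rested rats. It rose by 2.25 ± 0.27 (adjusted p = 9.88e-08) with no overlap. Maff, a small Maf protein that pairs with other basic leucine zipper factors, was lower on the scale: 5.59, 6.57 and 6.85 in exhausted against 4.65, 5.0 and 5.26 in rested rats. It rose by 1.46 ± 0.23 (adjusted p = 3.08e-05), and again no exhausted array reached down to a rested one. Mt2A, a metallothionein that binds zinc and copper and is induced by metals and glucocorticoids, had 6.06, 6.96 and 7.51 in exhausted and 4.16, 4.57 and 4.96 in rested rats. It rose by 2.29 ± 0.39 (adjusted p = 9.58e-05). Its 6 exhausted values were split, 3 of them at or above 7.38 and 3 at or below 6.55, and none overlapped with rest, where 3 of 6 arrays lay below 4.54, the value of the filter on low signal.

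The promoters of these 3 genes are shown because they hold letters of elements through which cyclic AMP or metals are known to act. They run from 250 bases before to 50 after the annotated start, 5′ to 3′ on the gene's strand, from RefSeq on GRCr8. Capitals mark the CRE core TGACG or its reverse complement CGTCA in Sik1 and the full cyclic AMP response element TGACGTCA in Maff. In Mt2A they mark the letters TGCGCNC, searched here as the metal response element, or their reverse complement. Other forms of that element were not searched and are not marked.
Sik1, chr20:9958597-9958896, minus strand: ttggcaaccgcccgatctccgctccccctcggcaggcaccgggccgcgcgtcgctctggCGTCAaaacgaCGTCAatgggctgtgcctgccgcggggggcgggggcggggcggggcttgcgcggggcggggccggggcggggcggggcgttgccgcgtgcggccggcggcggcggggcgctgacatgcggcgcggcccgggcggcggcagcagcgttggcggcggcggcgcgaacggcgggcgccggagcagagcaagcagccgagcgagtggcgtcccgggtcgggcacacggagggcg
Maff, chr7:112792537-112792836, plus strand: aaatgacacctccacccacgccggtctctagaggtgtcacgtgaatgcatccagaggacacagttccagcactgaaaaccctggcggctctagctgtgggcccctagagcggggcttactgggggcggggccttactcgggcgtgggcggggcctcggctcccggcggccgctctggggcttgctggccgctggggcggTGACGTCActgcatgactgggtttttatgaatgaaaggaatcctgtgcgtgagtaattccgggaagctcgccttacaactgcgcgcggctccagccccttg
Mt2A, chr19:10838659-10838958, minus strand: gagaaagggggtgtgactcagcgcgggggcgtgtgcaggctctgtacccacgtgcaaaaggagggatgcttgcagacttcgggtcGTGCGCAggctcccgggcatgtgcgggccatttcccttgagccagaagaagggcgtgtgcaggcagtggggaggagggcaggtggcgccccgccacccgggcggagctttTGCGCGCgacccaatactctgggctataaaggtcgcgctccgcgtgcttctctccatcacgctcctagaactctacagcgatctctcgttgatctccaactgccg

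In Sik1 the 2 cores begin at -191 and -180 from the start, in Maff the full element begins at -51, and in Mt2A the 2 matches to TGCGCNC begin at -165 and -55. RefSeq promoters were matched for 110 of the 138 genes that rose and 131 of the 163 that fell. Searched on both strands, the full CRE TGACGTCA, which contains the core, was found in 5.45% of the promoters of rises, 1.53% of those of falls and 1.91% of all 27457 promoters. The core TGACG was in 40.0% of rises, 25.2% of falls and 22.0% of all. The E-box CACGTG, bound by clock and Myc factors, was in 18.2%, 3.05% and 6.65%, and the metal element TGCGCNC in 30.9%, 20.6% and 15%. The AP-1 site TGACTCA was in 5.45%, 3.05% and 4.53%, and the palindromic consensus of the glucocorticoid response element in 0% of rises, 0% of falls and 0.00728% of all promoters. Base composition moved with these shares: the median GC content was 63.7% in promoters of rises, 58.0% in those of falls, 60.0% over the genes tested and 52.3% over all promoters, and its part in the shares was not tested. Among the 7808 genes tested with a promoter the core TGACG was in 30.0%, the full CRE in 2.88%, the E-box in 9.41%, the metal element in 25.9%, the AP-1 site in 3.70% and the glucocorticoid consensus in 0%. Of the 20 largest rises 18 had a matched promoter. The core was in 33.3% of these, the full CRE in 5.56%, the E-box in 16.7%, the metal element in 33.3%, the AP-1 site in 5.56% and the glucocorticoid consensus in 0%. The 3 promoters shown were picked from this set for their matches. All of these are matches of letters, not measured binding.

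**Figure D1:**
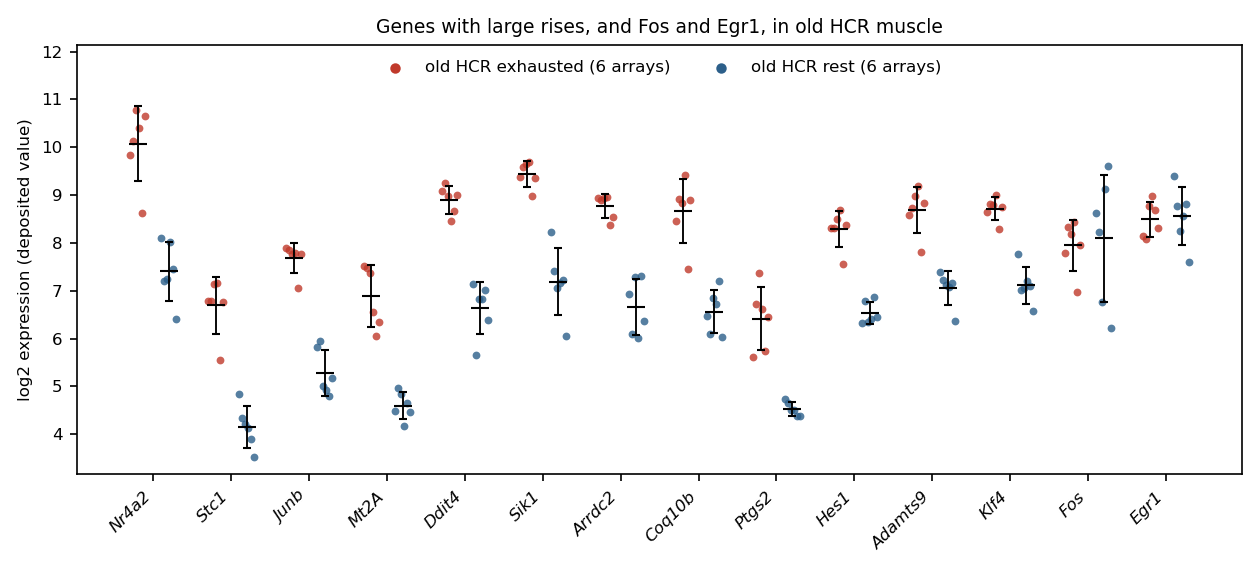
Log2 expression (vertical axis) of 12 genes with large rises and of Fos and Egr1 in the 6 exhausted (red, left) and 6 rested (blue, right) old HCR arrays, with bars for mean ± SD. The 12 rises show no overlap between the groups, while the rested arrays of Fos span 6.23 to 9.61 and enclose all exhausted ones.

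Of 26 measured immediate early transcription factors and early response genes 12 rose and 0 fell, with a median change of 0.44, against -0.05 over all genes. Besides Nr4a2, Junb and Maff these were the Krüppel-like factors Klf4 (1.6 ± 0.19), Klf10 (1.36 ± 0.21), Klf2 (1.08 ± 0.22) and Klf6 (0.54), the synaptic plasticity gene Arc (1.27 ± 0.23), Csrnp1 (1.24 ± 0.20), the growth regulator Myc (0.85 ± 0.18), the nuclear receptor Nr4a1 (0.78 ± 0.18) and Mafk (0.42). Over all alternatives 8 to 13 members were higher, the lowest count coming from the 12 arrays alone, where Myc, Klf6, Mafk and Nr4a1 were not called (adjusted p between 0.0506 and 0.0698).

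The best known members of the class did not pass the threshold. Fos, the partner of Jun proteins in AP-1, had 6.97, 8.07 and 8.45 as lowest, median and highest level in exhausted rats, against 6.23, 8.42 and 9.61 in rested rats, a difference of -0.15 ± 0.44 (adjusted p = 0.915). The spread at rest was wide (SD 1.33, against 0.53 after the run): rest replicates 1, 4 and 5 lay at 8.63, 9.12 and 9.61, above every exhausted array, and replicates 3 and 6 at 6.77 and 6.23, below every one. Egr1, a zinc finger early response factor, had 8.08, 8.51 and 8.97 in exhausted and 7.59, 8.67 and 9.40 in rested rats, a difference of -0.07 ± 0.39 (adjusted p = 0.964). Both differences turned slightly positive when some single arrays were left out and more negative when others were, that of Fos down to -0.52. Atf3, a stress-induced repressor, was at -0.52 (adjusted p = 0.489), and Jun and Fosb were at -0.34 and -0.14, also short of the threshold.

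In the other strata Fos and Egr1 did pass it. Fos was higher by 2.57 in young HCR (adjusted p = 5.9e-05), by 1.84 in old LCR (adjusted p = 0.0138) and by 2.31 in young LCR (adjusted p = 0.00239). Egr1 was higher by 1.48, 2.01 and 2.10 in these groups. The response of Egr1 in old HCR minus that in old LCR was -2.07 ± 0.55 (adjusted p = 0.039), and that of Fos was -1.99 ± 0.62 (adjusted p = 0.0819). Against young HCR the differences were -2.72 for Fos (adjusted p = 0.126) and -1.55 for Egr1 (adjusted p = 0.397), so that a difference from young HCR was not shown. Mean levels of Fos at rest were 8.10 in old HCR, 6.22 in young HCR and 6.29 in old LCR.

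Genes regulated by cyclic AMP and calcium had 5 of 15 measured members higher and 0 lower, at a median of 0.01 (0.08 without exhausted replicate 1). They were Nr4a2, Sik1, the clock gene Per1, Nr4a1 and the MAP kinase phosphatase Dusp1 (0.62 ± 0.18, adjusted p = 0.0447), whose call was lost without exhausted replicates 2, 3, 4 or 6, or rest replicates 2, 3, 4 or 6 (adjusted p up to 0.122). Ppargc1a, the coactivator of mitochondrial biogenesis that exercise is known to induce, was at -0.07 and did not pass the threshold.

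The list of MAP kinase phosphatases and feedback inhibitors had 5 of 17 members higher and 1 lower, at a median of 0.41. Its members are not all inhibitors of kinases, since it also holds Gadd45g and regulators of G protein signalling. Dusp1, described above, is among the 5. Errfi1, an inhibitor of the EGF receptor, had 10.78, 10.97 and 11.21 as lowest, median and highest level in exhausted rats, against 9.02, 9.68 and 10.27 in rested rats, a rise of 1.34 ± 0.19 (adjusted p = 5.4e-06) without overlap. Rgs2, a regulator of G protein signalling, rose by 1.23 ± 0.21, Gadd45g, an activator of stress kinases, by 1.19 ± 0.19 and Dusp5 by 0.47 ± 0.12. The call of Dusp5 was lost without exhausted replicate 6 or rest replicate 6 (adjusted p up to 0.0623). Rgs4, of the same family as Rgs2, fell and is described with the vessel genes. Zfp36, which binds AU-rich elements and speeds the decay of early transcripts, rose by 1.61 ± 0.21 (adjusted p = 4.9e-07) without overlap, and of the other 13 measured mRNA decay factors 1 passed the threshold: Pan2, a deadenylase subunit, fell by 0.41 on the log2 scale, a call lost with the 12 arrays alone (adjusted p = 0.0795).

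Targets of the glucocorticoid receptor and of FoxO factors had mostly upward changes. Of 21 measured members 8 rose and 0 fell, 20 had a positive change, and the median was 0.41. The 8 calls stayed 8 under every alternative run. Ddit4, which inhibits mTORC1 when energy or oxygen is short, had 8.46, 8.98 and 9.25 in exhausted rats, against 5.66, 6.82 and 7.13 in rested rats, a rise of 2.26 ± 0.28 (4.81-fold, adjusted p = 2.79e-07). Arrdc2, an arrestin-domain gene, had 8.37, 8.92 and 8.96 in exhausted and 6.0, 6.65 and 7.30 in rested rats, a rise of 2.11 ± 0.29 (adjusted p = 2.85e-06). Its relative Arrdc3, which limits beta-adrenergic signalling, rose by 1.42 ± 0.17 (adjusted p = 1.89e-07). None of these 3 overlapped between groups.

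Irs2, an insulin receptor substrate, rose by 1.37 ± 0.19 and Klf15, a glucocorticoid-induced regulator of amino acid use, by 0.73 ± 0.10. Per1, Mt2A and Errfi1 complete the 8. Fkbp5 (0.41), Klf9 (0.23), Foxo1 (0.08) and Foxo3 (0.06) did not pass the threshold, nor did the ubiquitin ligases of muscle atrophy, Trim63 (0.26, adjusted p = 0.265) and Fbxo32 (-0.04). Among 17 ubiquitin ligases and atrophy genes 0 rose and 2 fell. Rnf125, a ligase acting on antiviral sensors, had 5.94, 6.04 and 6.61 in exhausted rats, against 6.84, 6.95 and 7.05 in rested rats, a fall of 0.79 on the log2 scale (SE 0.09, adjusted p = 9.88e-08). Traf6 was lower by 0.31 on that scale, a call lost without exhausted replicate 1 (adjusted p = 0.0563). Of 21 autophagy genes 0 passed the threshold, with changes between -0.20 and 0.15.

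Among genes of fuel use the calls were few. Pfkfb3, which makes the activator of phosphofructokinase, had 9.32, 9.98 and 10.23 in exhausted rats, against 8.59, 8.75 and 9.35 in rested rats, a rise of 1.09 ± 0.27 (adjusted p = 0.0114). It was the 1 call among 20 genes of glycolysis and glycogen, where the median was -0.07 (-0.03 without exhausted replicate 1). The uncoupling protein gene Ucp2 rose by 0.77 ± 0.21 as the 1 call of 25 in the PPAR and fasting list, with exhausted replicate 5 (8.76) far above the other 5 (7.79 to 7.86), and the call was lost without exhausted replicate 5, or rest replicates 3, 4, 5 or 6 (adjusted p up to 0.0966). Pdk4, which holds back glucose oxidation, was at 0.30 (adjusted p = 0.745) with rested rats between 10.47 and 11.46.

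Coq10b, which is needed for coenzyme Q function in the respiratory chain, had 7.44, 8.86 and 9.43 in exhausted rats, against 6.04, 6.59 and 7.21 in rested rats. It rose by 2.10 ± 0.22 (4.28-fold, adjusted p = 1.17e-08) and was the 1 call among 17 genes of mitochondrial biogenesis and dynamics. Most mitochondrial enzymes had small negative changes. Fatty acid oxidation enzymes had 24 of 25 negative changes and 0 calls, at a median of -0.15. Citric acid cycle enzymes had 18 of 19 negative changes and 0 calls, at -0.09. Oxidative phosphorylation subunits had 45 of 55 negative changes and 1 call, Atp5f1c (-0.44 ± 0.12), at -0.09. Branched-chain amino acid catabolism had 19 of 19 negative changes and 1 call, Ivd (-0.28 ± 0.08), at -0.14. The call of Atp5f1c was lost without exhausted replicates 1, 3, 4 or 6, or rest replicates 5 or 6 (adjusted p up to 0.115), and that of Ivd without exhausted replicates 1, 2, 3, 4, 5 or 6, or rest replicates 1, 3, 4, 5 or 6 (adjusted p up to 0.144). The median of all genes was itself -0.05, with 36.9% of them positive. With arrays centred on the genes tested the medians of these 4 lists were -0.09, -0.03, -0.03 and -0.07. Negative changes then numbered 22 of 25, 16 of 19, 33 of 55 and 16 of 19. Without exhausted replicate 1, and without that centring, they numbered 22, 16, 39 and 18.

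**Figure D2:**
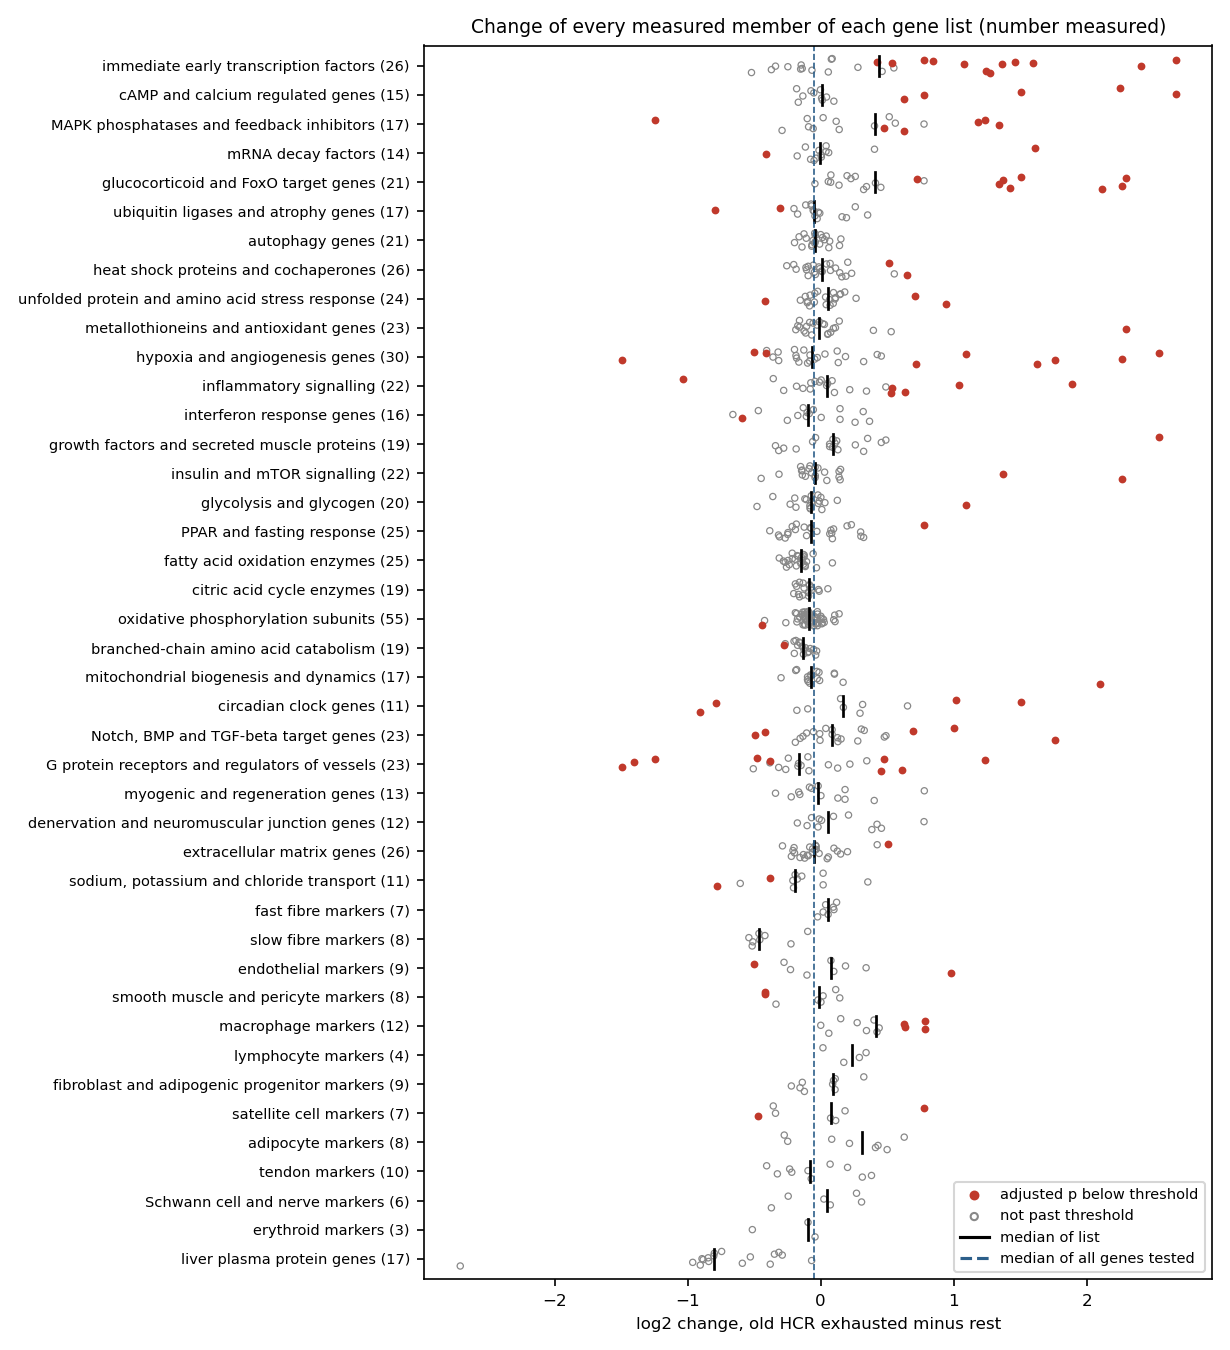
Log2 change, exhausted minus rest in old HCR (horizontal axis), of every measured member of the gene lists; filled red points are past the threshold, black bars are list medians and the dashed line is the median of all genes tested (-0.05). Immediate early genes and glucocorticoid and FoxO targets have many filled points on the right, mitochondrial lists have nearly none, and slow fibre markers and liver plasma protein genes lie to the left with 0 filled points.

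Of 26 heat shock proteins and cochaperones 2 rose: Dnaja1, a partner of Hsp70, by 0.65 ± 0.17 and Hsph1, its nucleotide exchange factor, by 0.51 ± 0.12. Dnaja1 was between 10.34 and 10.92 in 4 exhausted arrays and at 9.33 and 9.66 in replicates 1 and 5, against 9.36 to 9.82 in rested rats. Its call was lost without exhausted replicates 3, 4 or 6, or rest replicates 2 or 6 (adjusted p up to 0.0821), and that of Hsph1 without exhausted replicate 4 (adjusted p = 0.0504). In young HCR 10 of these 26 genes rose, where 4.82% of all genes tested did. The difference between old and young HCR was past the threshold for 0 of the 26. It was so for only 2 of all 9558 genes, so that this 0 is not particular to the list.

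Of 24 genes of the unfolded protein and amino acid stress response 2 rose and 1 fell. Ppp1r15a, which restores translation after stress, rose by 0.71 ± 0.14 (adjusted p = 0.000865) with no overlap. Chac1, which degrades glutathione, was called at 0.94 ± 0.27 but not without exhausted replicates 1, 3 or 6, or rest replicates 2, 4 or 6 (adjusted p up to 0.127), and the kinase gene Eif2ak3 at -0.42 but not without exhausted replicate 5, or rest replicates 2 or 6 (adjusted p up to 0.0771). Mt2A was the 1 call among 23 metallothionein and antioxidant genes.

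Genes of vessels, hypoxia and secreted signals moved in both directions. Of 30 hypoxia and angiogenesis genes 6 rose and 3 fell. Stc1, a secreted glycoprotein induced by hypoxia, was low on the scale, with 5 of 6 rested arrays below the filter value of 4.54, so that the size of its change rests on levels under that value. It had 5.54, 6.78 and 7.16 in exhausted rats, against 3.53, 4.17 and 4.84 in rested rats, a rise of 2.54 ± 0.28 (adjusted p = 1.69e-08) without overlap. Adamts9, a matrix protease with angiostatic activity, had 7.80, 8.78 and 9.19 in exhausted and 6.37, 7.14 and 7.39 in rested rats, a rise of 1.63 ± 0.19 (adjusted p = 5.08e-08). Apold1, which endothelium switches on early under stress, rose by 1.76 ± 0.34, and Adamts1 by 0.71 ± 0.12. Ddit4 and Pfkfb3 complete the 6. Besides Aplnr and Tek, described next, the glucose transporter gene Slc2a1 was called at -0.41, but not without exhausted replicates 2, 3, 4, 5 or 6, or rest replicates 1, 2, 3, 4, 5 or 6 (adjusted p up to 0.15).

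The 3 largest called falls were those of Aplnr, Lpar6 and Rgs4. Aplnr, the apelin receptor of endothelial cells, had 4.36, 5.59 and 5.80 as lowest, median and highest level in exhausted rats, against 6.39, 6.98 and 7.03 in rested rats, a fall of 1.49 in log2 terms (adjusted p = 2.65e-07, SE 0.19), which is 2.81-fold. Lpar6, a receptor for lysophosphatidic acid, had 6.34, 6.54 and 6.76 in exhausted and 7.56, 7.89 and 8.33 in rested rats, and fell by 1.40 (SE 0.17, adjusted p = 1.68e-07). Rgs4, which shortens G protein signals, had 5.63, 6.12 and 6.31 in exhausted and 6.98, 7.26 and 7.72 in rested rats, and fell by 1.24 (SE 0.17, adjusted p = 1.12e-06). In all 3 the highest exhausted array lay below the lowest rested one.

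Across the list of 23 G protein receptors and regulators of vessels 4 rose (Rgs2, Adora2a, S1pr1 and the chemokine scavenger Ackr3) and 5 fell (Aplnr, Lpar6, Rgs4, S1pr3 and P2ry1), at a median of -0.17. The median was -0.10 without exhausted replicate 1 and -0.11 without rest replicate 5, and without both arrays 3 rose and 3 fell at a median of -0.06. With the 12 arrays alone 1 rose and 3 fell. Of the smaller changes, the call of Adora2a was lost without exhausted replicates 3 or 4, or rest replicates 3, 4 or 5 (adjusted p up to 0.143) and that of S1pr1 without rest replicates 3 or 6 (up to 0.0739). The call of Ackr3 was lost without exhausted replicates 2, 4 or 6, or rest replicate 6 (adjusted p up to 0.0597). That of S1pr3 was lost without exhausted replicates 1, 3 or 6, or rest replicates 5 or 6 (adjusted p up to 0.0783), and that of P2ry1 without exhausted replicates 4 or 6, or rest replicates 4, 5 or 6 (up to 0.0888). Tek, the angiopoietin receptor, had 7.32, 7.73 and 7.98 in exhausted and 8.02, 8.19 and 8.30 in rested rats, and fell by 0.50 (SE 0.10, adjusted p = 0.00244). Efna1, an ephrin ligand, had 7.18, 7.25 and 7.44 in exhausted and 7.89, 8.12 and 8.38 in rested rats, and fell by 0.83 (SE 0.11, adjusted p = 4.9e-07). Neither overlapped. Cldn5, a tight junction protein of endothelium, went the other way at 0.98 ± 0.20 (adjusted p = 0.00181), with 2 of 6 exhausted arrays above the highest rested one. With the 12 arrays alone the calls of Cldn5 (adjusted p = 0.111) and Tek (adjusted p = 0.0614) were lost. Of 3 other genes of endothelium, named after their values were seen, Myct1 was called at -0.69, Tm4sf1 at -0.73 and Cd93 at -0.54, the last 2 not with the 12 arrays alone (adjusted p = 0.066 and 0.0911).

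Of 9 endothelial markers 1 rose (Cldn5) and 1 fell (Tek), with Cdh5 at -0.10, Vwf at 0.08 and Egfl7 at 0.10, and of 8 smooth muscle and pericyte markers 0 rose and 2 fell, Pdgfrb and Notch3, both at -0.42. The mean level of the endothelial list was 7.45 to 7.86 in exhausted and 7.47 to 7.89 in rested rats. The call of Pdgfrb was lost without exhausted replicates 1 or 4, or rest replicates 2, 5 or 6 (adjusted p up to 0.143), and that of Notch3 without exhausted replicate 3, or rest replicates 2 or 5 (up to 0.0729). In whole muscle, fewer cells of a type and less RNA per cell cannot be told apart.

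**Figure D3:**
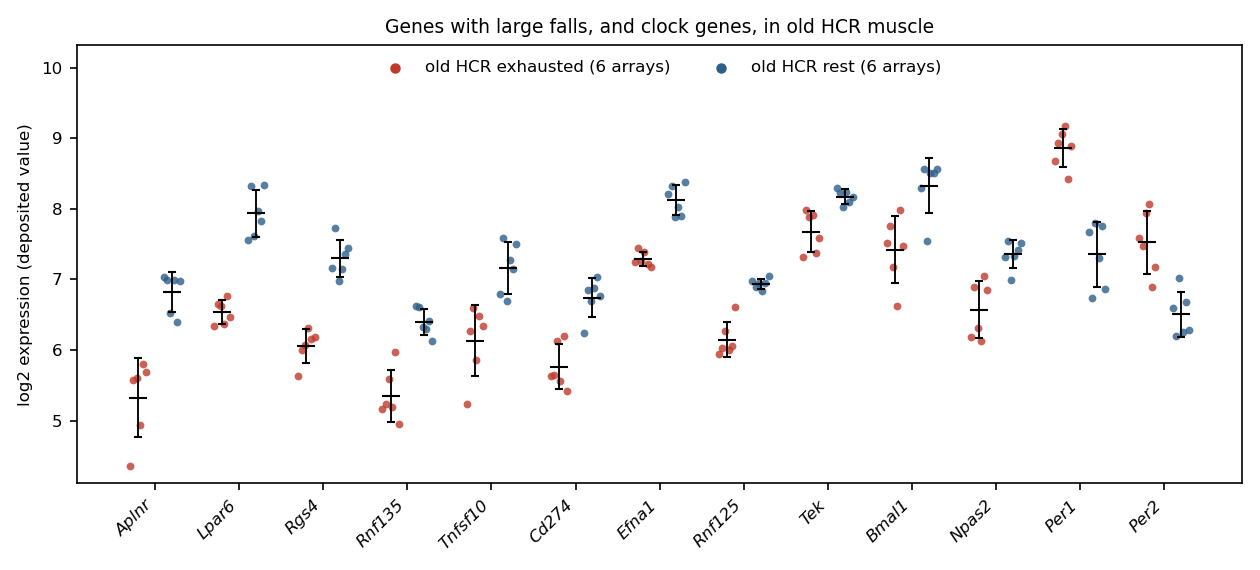
Log2 expression (vertical axis) of 9 genes that fell, and of the clock genes Bmal1, Npas2, Per1 and Per2, in the 6 exhausted (red, left) and 6 rested (blue, right) old HCR arrays, with bars for mean ± SD. The first 9 genes lie lower in every exhausted array than in any rested one, Bmal1 and Npas2 lie lower with some overlap, and Per1 lies higher without overlap.

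In the core loop of the circadian clock the activators Bmal1, Clock and Npas2 drive the Per and Cry genes, whose proteins repress them. Of 11 measured clock genes 2 rose and 2 fell. Per1 had 8.43, 8.90 and 9.17 in exhausted rats, against 6.74, 7.49 and 7.80 in rested rats, a rise of 1.5 ± 0.26 (adjusted p = 0.000173). Per2 had 6.89, 7.53 and 8.07 in exhausted and 6.20, 6.44 and 7.02 in rested rats, a rise of 1.02 ± 0.24 (adjusted p = 0.00981). Per1 did not overlap and Per2 did in 1 exhausted array.

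Bmal1 had 6.63, 7.49 and 7.99 in exhausted rats, against 7.55, 8.51 and 8.56 in rested rats, and fell by 0.91 (SE 0.20, adjusted p = 0.00547). Rest replicate 3, at 7.55, lay among the exhausted arrays, and the other 5 rested arrays lay at or above 8.30. Npas2 had 6.12, 6.58 and 7.05 in exhausted and 6.99, 7.38 and 7.55 in rested rats, and fell by 0.78 (SE 0.16, adjusted p = 0.00244). The other 7 members, Clock (-0.18), Per3 (0.15), Cry1 (-0.10), Cry2 (0.17), Dbp (0.65), Nfil3 (0.32) and Bhlhe40 (0.30), did not pass the threshold. Bmal1 was at -0.43 in young HCR, 0.06 in old LCR and -0.02 in young LCR, and Npas2 at -0.21, -0.20 and 0.18, none past the threshold. The differences between old HCR and young HCR (adjusted p = 0.743 and 0.51) and between old HCR and old LCR (adjusted p = 0.0696 and 0.194) were not past it either. With the 12 arrays alone the call of Bmal1 was lost (adjusted p = 0.0696). The labels give no time of day, and its part in these values was not tested.

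In the list of inflammatory signals 5 of 22 genes rose and 1 fell. Ptgs2, the inducible cyclooxygenase that makes prostaglandins, had 5.61, 6.53 and 7.36 in exhausted rats, against 4.37, 4.5 and 4.74 in rested rats, a rise of 1.89 ± 0.20 (adjusted p = 1.17e-08), with 4 of 6 rested arrays below the filter value. Nfkbia, the inhibitor that NF-kappaB induces against itself, rose by 1.04 ± 0.15 without overlap, Cd14, a coreceptor of bacterial lipopolysaccharide, by 0.63 ± 0.13, the interleukin-6 receptor gene Il6r by 0.54 ± 0.14 and the NF-kappaB cofactor Bcl3 by 0.53 ± 0.15. Tnfsf10, the death ligand TRAIL, fell by 1.04 (SE 0.21, adjusted p = 0.00145). Cd274, the checkpoint ligand PD-L1, fell by 0.98 (SE 0.16, adjusted p = 4.6e-05), with 5.42 to 6.20 in exhausted against 6.24 to 7.04 in rested rats. The call of Il6r was lost without exhausted replicates 1 or 2, or rest replicates 1 or 6 (adjusted p up to 0.0677), and that of Bcl3 without exhausted replicates 1 or 2, or rest replicates 1, 4 or 6 (up to 0.153). Of 16 interferon response genes 1 passed the threshold, Ifit2 at -0.59, not so without exhausted replicates 1 or 2, or rest replicate 6 (adjusted p up to 0.0843).

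Of 12 measured macrophage markers 4 rose, 0 fell and all 12 had a positive change, at a median of 0.41. The list mean was 5.92 to 6.89 in exhausted and 5.46 to 6.23 in rested rats. Lyve1, of resident macrophages and lymphatic vessels, had 6.77, 6.90 and 7.48 in exhausted and 5.71, 6.20 and 6.72 in rested rats, a rise of 0.79 ± 0.19 (adjusted p = 0.0114). Cd14 also showed no overlap, with 5.88 to 6.67 against 5.19 to 5.75. The complement gene C1qb (0.79 ± 0.21) and the growth factor receptor gene Csf1r (0.62 ± 0.17) overlapped with rest in 3 of 6 exhausted arrays each. The call of C1qb was lost without exhausted replicates 1, 2 or 4, or rest replicates 2, 3, 5 or 6 (adjusted p up to 0.103), that of Csf1r without exhausted replicates 2 or 4, or rest replicates 2, 4, 5 or 6 (up to 0.107), and that of Lyve1 without rest replicate 4 (adjusted p = 0.0502). Exhausted replicate 2 had the highest list mean, and 2 of the 12 were called without exhausted replicate 1 and rest replicate 5, and 1 of 12, Cd14, with the 12 arrays alone. Cd68, a general macrophage marker, was at 0.00.

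Of 11 neutrophil markers on the array 0 passed the filter on low signal, and 4 of 11 lymphocyte markers did, with 0 calls and changes between 0.02 and 0.34. Of 9 fibroblast, 8 adipocyte, 10 tendon, 6 Schwann cell and 3 erythroid markers 0 were called. Satellite cell markers had 1 rise, the syndecan gene Sdc4 (0.77 ± 0.13, adjusted p = 7.76e-05), and 1 fall, the laminin receptor gene Itga7 (-0.47 ± 0.11, adjusted p = 0.00577), among 7, both without overlap. Both genes are also used by other cells. The muscle transcription factor genes Myf5 (-0.34) and Myod1 (0.18) were not called.

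Some markers of composition differed widely between rats of the same group. Slow fibre markers had 0 of 8 calls, 8 negative changes and a median of -0.46, which was -0.23 without exhausted replicate 1 and rest replicate 5. Myh7, the slow myosin heavy chain, had 9.74, 10.51 and 10.87 in exhausted rats, against 9.37, 11.43 and 11.60 in rested rats. Rest replicates 3 to 6 lay at or above 11.39 and replicates 1 and 2 at 9.37 and 10.05. The exhausted arrays lay above rest replicate 1 and below rest replicates 3 to 6, the lowest of them under rest replicate 2 (change -0.51 ± 0.52, adjusted p = 0.68). Liver plasma protein genes had 0 of 17 calls, 17 negative changes and a median of -0.80, which was -0.51 without rest replicate 5, with 16 of 17 negative. Alb, serum albumin, had 4.32, 5.21 and 9.79 in exhausted and 5.52, 9.16 and 10.77 in rested rats, with exhausted replicate 5 as the only exhausted array above 5.38. With the mean of these genes as a covariate 135 genes rose and 229 fell.

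Of 12 measured markers of denervation and of the motor endplate 0 were called, at a median of 0.05 that turned to -0.06 without exhausted replicate 1, with 8 of the 12 then negative, and to -0.11 without exhausted replicate 1 and rest replicate 5. Likewise 0 of 13 myogenic genes were called. Chrna1, the acetylcholine receptor alpha subunit, was at 10.09 in exhausted replicate 1, 8.52 in replicate 2 and at or below 7.81 in the other 4, against 7.22 to 8.37 in rested rats. Gadd45a was at 10.67 in exhausted replicate 1 and 9.59 in rest replicate 2, against 7.50 to 8.91 in the other 10 arrays. Whether these arrays' states moved other results was tested only by leaving the arrays out.

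**Figure D4:**
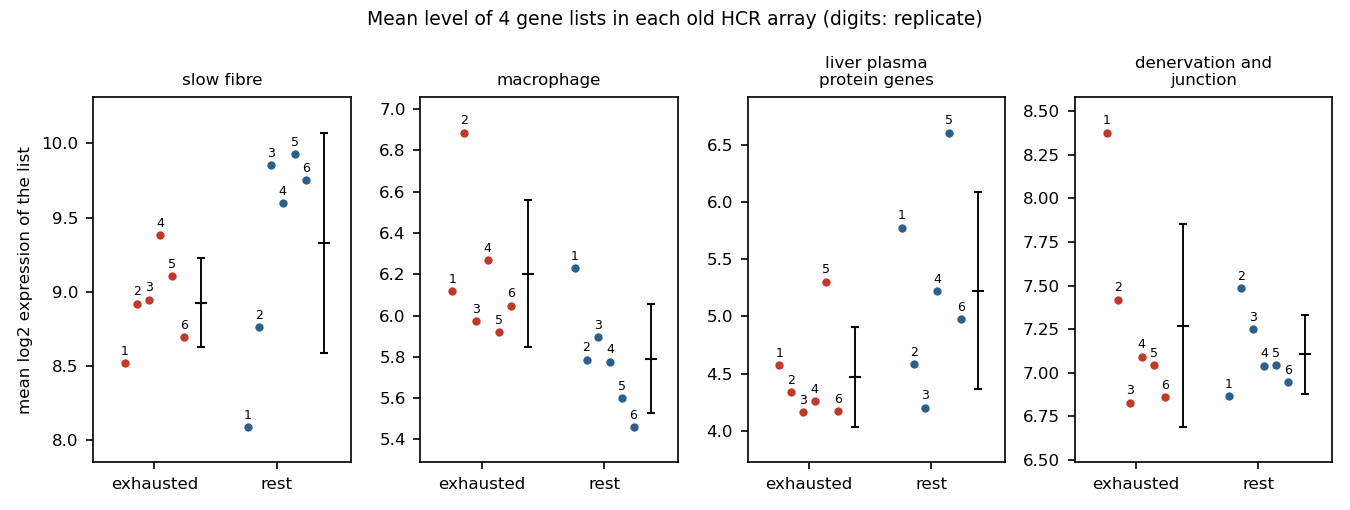
Mean log2 level of 4 gene lists (vertical axes, scaled per panel) in each of the 6 exhausted (left) and 6 rested (right) old HCR arrays, with digits for the replicate and bars for mean ± SD. Slow fibre markers are low in rest replicates 1 and 2 and high in the other 4, macrophage markers peak in exhausted replicate 2, liver genes in rest replicate 5 and denervation genes in exhausted replicate 1.

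Developmental signalling had mixed calls. Of 23 Notch, BMP and TGF-beta target genes 3 rose and 2 fell. Hes1, a repressor downstream of Notch, had 7.56, 8.34 and 8.69 in exhausted rats, against 6.32, 6.43 and 6.87 in rested rats, a rise of 1.76 ± 0.16 (adjusted p = 2.35e-10) without overlap. Tgif1, a corepressor of TGF-beta signalling, rose by 1.0 ± 0.16 (adjusted p = 6.17e-05), with 6.08 to 7.0 in exhausted against 5.38 to 5.70 in rested rats. The Notch ligand Jag1 fell by 0.50 (SE 0.12, adjusted p = 0.00741) and the receptor Notch3 by 0.42, neither called with the 12 arrays alone (adjusted p = 0.113 and 0.105). Nrarp, which dampens Notch, was called at 0.70, and not without exhausted replicates 1, 3, 4 or 6, or rest replicates 3, 4, 5 or 6 (adjusted p up to 0.129). Among 26 matrix genes the inhibitor Timp3 was the 1 call (0.50 ± 0.12, lost without rest replicate 6 at an adjusted p of 0.0552), and collagens such as Col1a1 (-0.16) and Col3a1 (-0.22) were not called.

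Among ion transport genes 0 of 11 rose and 2 fell. Atp1b4, a muscle protein related to sodium pump beta subunits, fell by 0.78 (SE 0.20, adjusted p = 0.0177), a call lost without rest replicate 2 or 4 (adjusted p up to 0.0674), and the inward rectifier Kcnj2 by 0.38, a call lost without exhausted replicates 1, 2, 3, 5 or 6, or rest replicates 2, 3, 5 or 6 (adjusted p up to 0.183). Of the 20 largest rises Map3k6 (1.75 ± 0.19), a stress kinase, Prima1 (1.64 ± 0.27), which anchors acetylcholinesterase, Gnat1 (1.59 ± 0.19), transducin alpha of rod photoreceptors, and Mettl21cl1 (1.43 ± 0.27) belong to none of the lists. Gnat1 was low on the scale, with 5.13 to 6.61 in exhausted against 4.11 to 4.89 in rested rats, 5 of them below the filter value. Among the 15 largest falls the ubiquitin ligase Rnf135 (-1.04 ± 0.21), the pseudokinase Trib2 (-0.82 ± 0.16) and the channel gene Calhm5 (-0.85 ± 0.18) showed no overlap between groups. Gimap7, a GTPase of the immune system, was called at -0.99 (adjusted p = 0.0162), but not without exhausted replicate 6 (adjusted p = 0.0521). RT1-M3-1, a class Ib histocompatibility gene, was called at -0.78 (adjusted p = 0.0236), but not without exhausted replicates 1, 2 or 3, or rest replicates 1 or 6 (adjusted p up to 0.0915), and 5 of 6 exhausted arrays lay below the filter value.

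The 20 largest rises all had groups without overlap, as did 10 of the 15 largest falls. They were chosen by their change between these same arrays, which favours such separation. Over all genes tested it held for 0.753% upwards and 1.16% downwards. Rats differed in the size of the response. Exhausted replicate 5 was the lowest of its group in 15 of the 20 rises and the highest in 7 of the 15 falls. Its mean over the 20 genes was 1.28 above the mean of the rested arrays, against 1.91 to 2.13 in the other 5 exhausted arrays. It was also the exhausted array with the highest Alb and liver gene mean (5.30), and the part of this in the response was not tested. Without it 148 genes rose and 118 fell.

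Young HCR rats, a separate set of 12 arrays in which 8.68% of genes were called, showed most of the same rises. Of the 138 rises 116 were also called in young HCR (84.1% of the old HCR list and 25.2% of the 461 in young HCR, where 4.82% of genes rose), and 138 had a positive change there. Of the 163 falls 77 were shared (47.2%, and 20.9% of the 369 in young HCR, where 3.86% of genes fell). The response differed between old and young HCR for 2 of 9558 genes (0.0209%, limma, and 756 genes or 7.91% at an unadjusted p below the threshold). Both were lower in old HCR. The urotensin receptor gene Uts2r was at -0.10 in old and 1.70 in young HCR, a difference of -1.79 (adjusted p = 0.0265). For Uts2r 5 exhausted and 5 rested old HCR arrays lay below the value of the filter on low signal. Its change in old HCR, and with it the size of this difference, therefore rests on levels under that value. Tspyl2 was at 0.31 in old and 1.06 in young HCR, a difference of -0.74 (adjusted p = 0.0265). The call of Uts2r was lost in 13 of the 24 fits that left out 1 HCR array, those without old HCR exhausted replicates 1, 3 or 5, or old HCR rest replicates 1, 2 or 5, or young HCR exhausted replicates 2, 3, 4 or 6, or young HCR rest replicates 1, 3 or 4 (adjusted p up to 0.096). That of Tspyl2 was lost in 14, those without old HCR exhausted replicates 1, 3 or 5, or old HCR rest replicates 1, 2 or 5, or young HCR exhausted replicates 2, 3, 4 or 5, or young HCR rest replicates 3, 4, 5 or 6 (adjusted p up to 0.0979). Between 0 and 4 genes were called over these fits. Of the 138 rises 89 were smaller in old than in young HCR, none by a difference past the threshold.

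Among genes named above Junb changed by 2.41 in old and 3.18 in young HCR, Nr4a2 by 2.67 and 3.64, Coq10b by 2.10 and 2.95, Hes1 by 1.76 and 2.28, and Maff by 1.46 and 2.37. Stc1 was at 2.54 and 2.25, Gnat1 at 1.59 and 0.94, and Mettl21cl1 at 1.43 and 0.30. No difference of these 8 passed the threshold, with adjusted p between 0.379 and 0.926.

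Of the 138 rises 14 were called in old LCR (10.1%, and 20% of the 70 there), where 0.732% of genes rose, and 3 were called in the opposite direction. Of the 163 falls 2 were shared (1.23%, and 1.49% of the 134 there), where 1.4% of genes fell. The response differed between old HCR and old LCR for 152 genes (1.59%), 78 with a higher response in old HCR (0.816%) and 74 with a lower one (0.774%). Of the old HCR calls, 32 of 138 rises had a higher and 34 of 163 falls a lower response than in old LCR. These calls were chosen by their change in the same old HCR arrays, so that a tilt in this direction is built in. The count of 152 was 340 without old LCR rest replicate 3. It was 85 or 89 without old HCR exhausted replicate 1 or 2, 90 or 81 without old HCR rest replicate 2 or 6, 101, 87 or 97 without old LCR exhausted replicate 1, 3 or 5, and 76 or 77 without old LCR rest replicate 5 or 6. With the 24 old arrays alone it was 32. Markers of composition moved with this difference: of the 12 markers of denervation and the motor endplate 5 were called lower after the run in old LCR, where their median was -0.92, and the same number had a higher response in old HCR, at a median difference of 1.13. Slow fibre markers had 0 of 8 calls in either test, with a median of 0.58 in old LCR and a median difference of -1.11. The part of these markers in the 152 was not tested. The labels give no running time or distance, so that line and length of the run cannot be told apart.

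Mt2A had the largest difference, 4.18 ± 0.54 (adjusted p = 1.14e-05). Its mean was 6.89 ± 0.64 in exhausted and 4.59 ± 0.29 in rested old HCR rats, and 4.62 ± 0.90 in exhausted and 6.51 ± 1.25 in rested old LCR rats (SD, n = 6 each), so that the change ran in opposite directions. Tgif1 also did so, at 1.0 in old HCR and -0.70 in old LCR (difference 1.70 ± 0.23, adjusted p = 1.75e-05), as did the cell adhesion receptor gene Pvr at 0.83 and -1.10 (1.93 ± 0.29, adjusted p = 8.11e-05). In each of these 3 the rested old LCR mean was the higher level of its line. The rise of Pvr in old HCR was not called without exhausted replicate 1 or rest replicate 6 (adjusted p up to 0.0696), nor with the 12 old HCR arrays alone.

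Hes1 was at 1.76 in old HCR and 0.29 in old LCR (difference 1.46 ± 0.22), Adamts9 at 1.63 and -0.19 (1.82 ± 0.26), Stc1 at 2.54 and 0.33 (2.21 ± 0.39) and Arrdc3 at 1.42 and -0.04 (1.46 ± 0.25), with adjusted p between 5.1e-05 and 0.00116. For Stc1 5 of 6 rested old HCR arrays lay below the filter value, so that the size of its difference rests on levels under that value. Of 21 glucocorticoid and FoxO targets 8 had a higher response in old HCR and 0 a lower one. They are not all the same genes as the 8 called rises. Per1 is not one of them, while Gadd45a, not called in old HCR and changed downwards in old LCR, is. In old LCR itself 1 of the 21 rose and 3 fell. Among the falls, Rnf125 was at -0.79 in old HCR and 0.08 in old LCR (difference -0.87 ± 0.13), Efna1 at -0.83 and 0.06, Aplnr at -1.49 and 0.04, Lpar6 at -1.40 and -0.15 and Rgs4 at -1.24 and -0.03, with adjusted p between 8.71e-05 and 0.00283. Trim63, not called in old HCR (0.26), was at -0.67 in old LCR, a difference of 0.93 ± 0.17 (adjusted p = 0.00167).

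Apold1 changed by 1.76 in old HCR and 1.91 in old LCR (difference -0.15 ± 0.49), Zfp36 by 1.61 and 1.17 (0.45 ± 0.29), Klf2 by 1.08 and 0.95 (0.13 ± 0.31) and Nr4a1 by 0.78 and 0.96 (-0.18 ± 0.25). Their differences did not pass the threshold (adjusted p between 0.505 and 0.92), which does not show that the lines responded alike. Young LCR shared 26 of the 138 rises (18.8%, and 34.2% of the 76 there, 0.795% of genes) and 3 of the 163 falls (1.84%, and 21.4% of the 14 there, 0.146% of genes).

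**Figure D5:**
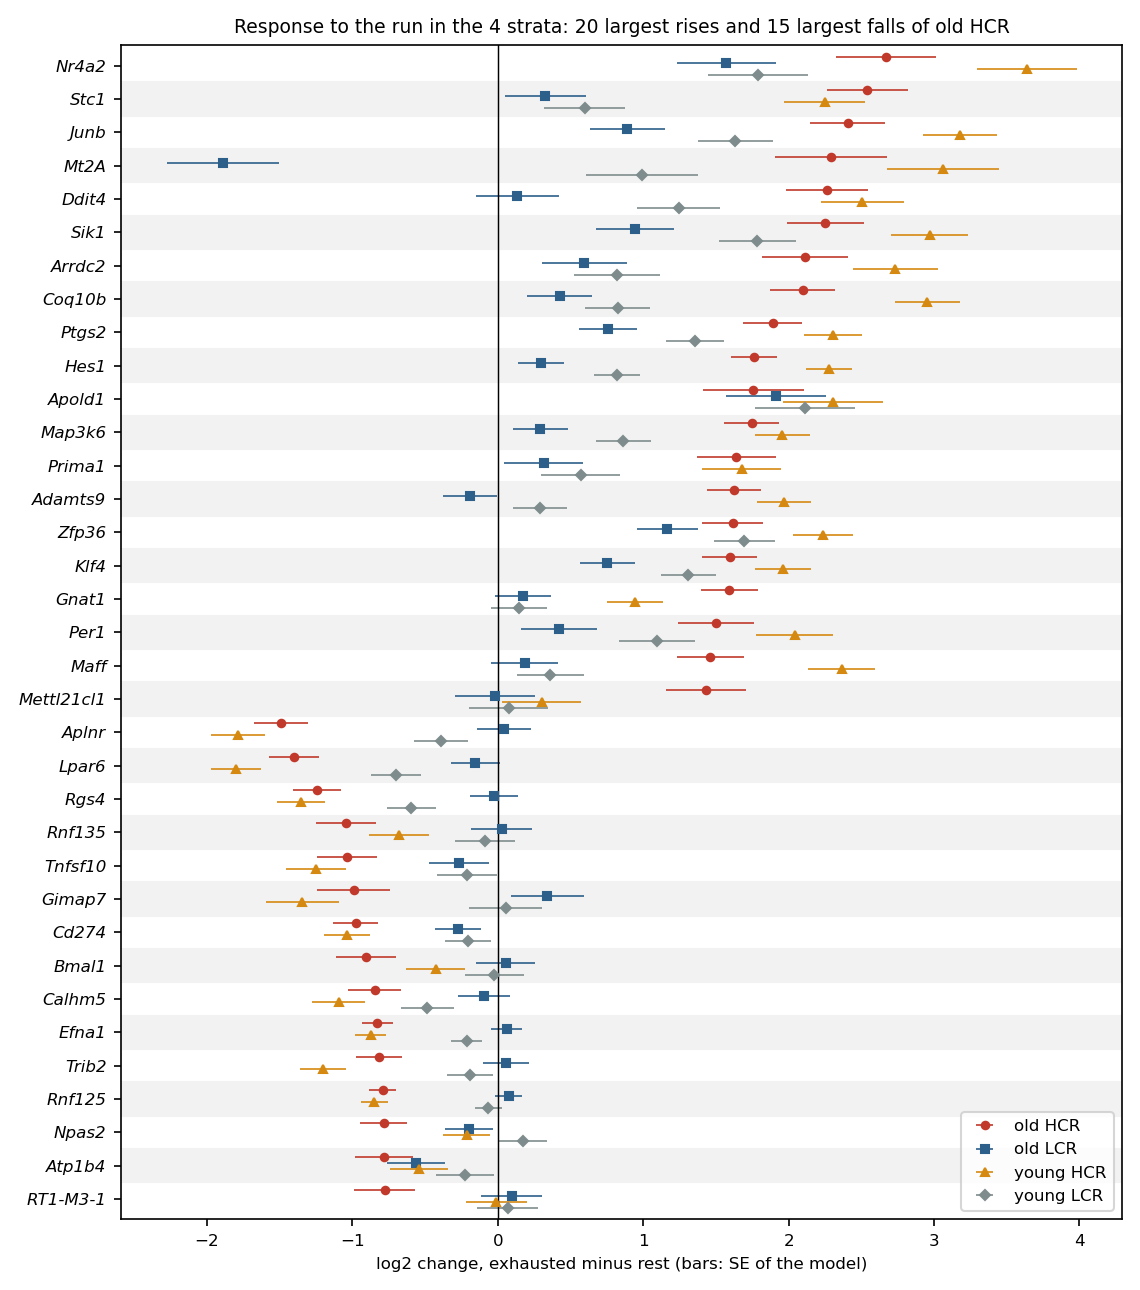
Log2 change, exhausted minus rest (horizontal axis, bars for the model's SE), of the 20 largest rises and 15 largest falls of old HCR in old HCR, old LCR, young HCR and young LCR. Young HCR (triangles) lies near old HCR (circles) for most genes, old LCR (squares) lies near 0 for many, and Mt2A lies at -1.89 in old LCR.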

How the data were processed

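RNA of 48 rat muscles was hybridised to Affymetrix Rat Gene ST 2.1 arrays. Per the labels' protocols, total RNA was extracted with Trizol, treated with DNase, cleaned on columns and labelled with biotin. The authors deposited log2 values, with 1 value for each probe set on each array. Per the submitters' processing notes RMA and oligo were used, and the design text names Expression Console; which of them produced the table was not given in the sources used here. As RMA equalises the distributions of arrays, a shift shared by most transcripts would be lost.

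Of 36685 probe sets 14824 name exactly 1 gene in the platform table, 829 name several and 21032 none. Entrez identifiers matched 14670 of them to current rat genes, symbols 89 more, and 65 kept the table's name. The brightest probe set stood for a gene, which concerned 234 genes with several. The filter kept genes above 4.54, the table's median, on 6 or more arrays (9558 genes, with 4999 dropped).

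limma 3.58.1 in R 4.3.3 fitted 1 mean for each of 8 groups over the 48 arrays (40 residual and 3.77 prior degrees of freedom). P-values were two-sided, adjusted by Benjamini-Hochberg within each contrast, and called below 0.05. Groups came from the labels, and replicates are different animals numbered in accession order. Differences of responses were tested as contrasts of contrasts. Errors are SE for changes and SD for means. Simulated data held independent normal noise with each gene's own spread, the same on all arrays, and changes added in old HCR exhausted. They had no correlation between genes and no array that stands apart, as exhausted replicate 1 does. In them the contrast of old HCR exhausted minus rest recovered 65.7% of changes of 0.5, 94.0% of changes of 1 and 100% of changes of 2 on the log2 scale. It gave 9 false among 182 calls over 9558 genes. Of changes of 0.5 the difference from young HCR recovered 43.3% and that from old LCR 44.8%.

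The members and 43 gene lists (29 of pathways, 14 of cell types) were chosen with earlier results of these data known. Named genes are the 20 largest rises and 15 largest falls past the threshold, up to 5 called members of a list (or 2 others where none was called), and up to 8 genes per direction for each difference of responses. Of these, some that were not called are counted in their lists and not named. Other genes, called or not, are named to complete a list's calls or as known members of a list, chosen after their values were seen. Alternatives were quantile normalization, centring on array medians, other filters, the mean of a gene's probe sets, array weights, a moderated trend, a liver covariate, fewer arrays and each array left out. Leaving out exhausted replicate 1 with rest replicate 5, and centring on the genes tested, were added after seeing the data. Python 3.11.15 with pandas 2.3.3 and matplotlib 3.10.9 made tables and figures.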

Additional observations from a re-analysis of the deposited data

Results flagged for a closer look

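The change after the run differed between old HCR and old LCR rats for many of the genes named, by the test of the difference itself (limma, Benjamini-Hochberg). Genes were named for large changes in old HCR, as list members or for a small p in this same test. How many of them differ therefore depends on that choice. Over all 9558 genes tested 152 (1.59%) differed, and 32 did with the 24 old arrays alone. The values are the log2 response in old HCR minus that in old LCR. The response was higher in old HCR for Mt2A (4.18), Gadd45a (2.53), Stc1 (2.21), Ddit4 (2.13), Chrna1 (2.10), Pvr (1.93), Adamts9 (1.82) and Tgif1 (1.70). It was also higher for Coq10b (1.67), Arrdc2 (1.52), Junb (1.52), Arrdc3 (1.46), Hes1 (1.46), Map3k6 (1.45), Mettl21cl1 (1.45) and Gnat1 (1.42). Further genes with a higher response were Errfi1 (1.29), Maff (1.28), Klf10 (1.26), Ptgs2 (1.13), Irs2 (1.05), Trim63 (0.93), Nfkbia (0.89) and Sdc4 (0.88). A smaller positive difference was that of Hsph1 (0.78). Some of these sizes rest on rested old HCR levels below the filter value: 5 of 6 such arrays for Stc1 and Gnat1, 4 for Ptgs2 and 3 for Mt2A. The response was lower in old HCR for Aplnr (-1.53), Gimap7 (-1.33), Lpar6 (-1.25), Rgs4 (-1.22), Rnf135 (-1.07), Zc2hc1c (-0.90), Efna1 (-0.89) and Trib2 (-0.87). It was also lower for Rnf125 (-0.87), Mylip (-0.71), Podxl2 (-0.69), Jag1 (-0.68) and Tek (-0.55). Adjusted p-values ran from 1.14e-05 to 0.0469. Gadd45a, a growth arrest gene, and Chrna1 were not called in old HCR itself, where exhausted replicate 1 lay far above its group, and in old LCR they changed by -1.76 and -1.64.

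Against young HCR the response was lower in old HCR for Uts2r (-1.79) and Tspyl2 (-0.74), both at an adjusted p of 0.0265. For Uts2r 5 exhausted and 5 rested old HCR arrays lay below the value of the filter on low signal.

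In 23 of 218 groups of 6 arrays tested, 1 array lay apart from the other 5 by more than Dixon's 95% criterion for its gap to the nearest of them. Chance gives about 1 in 20 groups. Exhausted replicate 1 lay apart for Ivd (8.87), Jag1 (6.56), Gadd45a (10.67), Myl3 (9.24) and Pvr (9.08). Exhausted replicate 5 lay apart for Stc1 (5.54), Junb (7.07), Hes1 (7.56), Prima1 (6.01), Ucp2 (8.76), Alb (9.79), C3 (5.92) and Uts2r (3.62). Rest replicate 1 lay apart for Gnat1 (4.89) and Hbb-b1 (8.39). Rest replicate 2 lay apart for Mettl21cl1 (4.46), Ankrd1 (9.58), Gadd45a (9.59) and Cd8a (3.59). Rest replicate 3 lay apart for Bmal1 (7.55). Rest replicate 5 lay apart for Sdhd (10.56). Rest replicate 6 lay apart for Adamts9 (6.37) and Timp3 (9.02).

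Probe sets without a single gene name took no part in the comparisons above. Of 11882 that passed the same filter 132 (1.11%) were past the threshold after the run in old HCR, 61 higher (0.513%) and 71 lower (0.598%). One of them lay between 3.89 and 5.25 in exhausted and between 6.93 and 7.74 in rested rats, a change of -3.01 ± 0.29, which exceeds any fall among the genes with a name.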

How the results depend on the processing

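No paired analysis was possible because the replicate numbers are in accession order and mark no shared litter, day or batch. Of 60 named rises 37 and of 35 named falls 14 stayed past the threshold under all 24 alternatives, and 0 changed sign. The number of rises was 99 to 151 with single arrays left out, and 76 with the 12 old HCR arrays alone. The number of falls was 97 to 196 with single arrays left out, 42 with the 12 arrays alone, 83 with arrays centred on the genes tested and 82 without exhausted replicate 1 and rest replicate 5, the last 2 settings being chosen after seeing the data. Both directions together gave 207 to 323, 118 with the 12 arrays alone and 187 without that pair of arrays. The difference from young HCR gave 0 to 4 genes with single arrays left out, 4 with array weights, 1 with arrays centred on their median, with the 24 HCR arrays alone or without the pooled young HCR rest sample, and 0 with no filter, without 3 arrays that stood apart or without the pair. The difference from old LCR gave 76 to 340 genes with single arrays left out, 65 with no filter, 32 with the 24 old arrays alone and 74 without the pair. Fewer arrays in a fit leave fewer degrees of freedom; beyond that the cause was not tested.

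Among genes that were not called, Ankrd1 (0.40) was at -0.15 without exhausted replicate 1 or without the 3 arrays that stood apart and at -0.12 without the pair, and ran from -0.15 to 0.81 with single arrays left out. Uts2r (-0.10) was at 0.039 without exhausted replicate 5 and 0.017 without rest replicate 1, in a range of -0.15 to 0.039. Fos (-0.15) was at 0.044, 0.055 and 0.15 without exhausted replicate 5, rest replicate 4 and rest replicate 5, in a range of -0.52 to 0.15, and at 0.18 without the pair. Egr1 (-0.07) was at 0.073 with array weights, 0.0063 without exhausted replicate 1 or the 3 arrays, 0.018 without exhausted replicate 2, 0.10 without rest replicate 1 and 0.055 without the pair, in a range of -0.26 to 0.10. Genes near the filter value of 4.54 have the least signal over background.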

Other observations

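Secreted and growth-related genes gave few calls. Of 19 growth factors and secreted muscle proteins 1 rose, Stc1, at a list median of 0.09. Of 22 genes of insulin and mTOR signalling 2 rose, Irs2 and Ddit4, at a median of -0.04.

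Genes next to the threshold give a sense of its place. Just inside it were Irf2bpl (0.39) and Ivd (-0.28), and just outside Mppe1 (-0.45) and Lrrc8c (0.42, adjusted p = 0.0503).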
